A study of Mus musculus with 10 samples.

Results

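Cell cycle and proliferation genes were examined in cultured mouse adipocytes with and without adipocyte deletion of Fam20c, a secretory pathway kinase. The members were 45 genes listed by their known roles and matched by symbol to the 56748 genes of the deposited count table: 11 genes of DNA replication and S phase, 22 genes of G2 and mitosis, 5 G1 and G1/S cyclins, 4 inhibitors of cyclin-dependent kinases (CDKs) and 3 transcription factors. All 45 were found, and 44 had enough counts to be tested. RNA-seq covered 5 control libraries (Fam20c-flox, the floxed alleles with no Cre) and 5 Ad-Fam20c–KO libraries (Fam20c-flox/Adipoq-Cre), here called control and KO. Both groups carried the floxed Fam20c alleles, and no group carried the Cre transgene alone, so an effect of the transgene cannot be told apart from that of the deletion. The cells were inguinal stromal vascular fractions of male mice 6 to 8 weeks old, differentiated in culture for 6 to 8 days with an adipogenic mix. The Adiponectin promoter that drives Cre is active in adipocytes and not in the other cells that such a culture keeps. The labels do not say whether the libraries of a group came from separate mice or cultures, so the p-values measure the spread between these libraries.

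Cells that divide copy their DNA in S phase and separate it in mitosis, and the genes for each step are switched on in turn. E2F factors switch on replication genes when cyclin D and cyclin E kinases release them from pocket proteins, whereas mitotic genes rise later under B-MYB and FOXM1, often through a promoter element called the cell cycle genes homology region (CHR) that lies near CCAAT boxes. Fat cell precursors may divide at the start of differentiation and then leave the cycle, and mature adipocytes express CDK inhibitors and D-type cyclins without dividing.

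The promoters of members whose values are described here are shown because S phase and mitosis members held such elements in different shares. Each stretch of 200 bases was read from RefSeq on GRCm38.p6, 5′ to 3′ on the strand of the gene, with 170 bases before the annotated start and 30 bases from it on. Capitals mark matches, on either strand, to the CHR (TTTGAA), the CCAAT box (CCAAT) or an E2F-like element (GGCGGGAA or GGCGCGAA). Kif23 (chr9:61946770-61946969, minus strand), Ccnb2 (chr9:70421525-70421724, minus strand) and Cdk1 (chr10:69352883-69353082, minus strand) are mitosis genes. Mcm5 (chr8:75109339-75109538, plus strand) and Mcm6 (chr1:128359676-128359875, minus strand) are S phase genes.
Kif23: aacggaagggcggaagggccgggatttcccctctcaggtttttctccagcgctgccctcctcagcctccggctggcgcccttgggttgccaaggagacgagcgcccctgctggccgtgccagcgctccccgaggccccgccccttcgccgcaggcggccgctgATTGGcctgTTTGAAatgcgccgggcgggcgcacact
Ccnb2: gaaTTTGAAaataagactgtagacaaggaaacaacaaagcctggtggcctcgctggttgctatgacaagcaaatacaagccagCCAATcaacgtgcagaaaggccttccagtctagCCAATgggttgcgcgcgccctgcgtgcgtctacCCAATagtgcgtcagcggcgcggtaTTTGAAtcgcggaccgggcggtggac
Cdk1: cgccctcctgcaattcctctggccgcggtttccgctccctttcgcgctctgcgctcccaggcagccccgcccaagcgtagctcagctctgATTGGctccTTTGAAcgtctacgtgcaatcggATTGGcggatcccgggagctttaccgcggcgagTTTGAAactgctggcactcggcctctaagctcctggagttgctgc
Mcm5: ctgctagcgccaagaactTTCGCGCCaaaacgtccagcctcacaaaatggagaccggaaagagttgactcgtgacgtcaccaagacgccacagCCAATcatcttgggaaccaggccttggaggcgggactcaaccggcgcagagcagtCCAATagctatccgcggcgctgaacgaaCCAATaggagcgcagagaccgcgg
Mcm6: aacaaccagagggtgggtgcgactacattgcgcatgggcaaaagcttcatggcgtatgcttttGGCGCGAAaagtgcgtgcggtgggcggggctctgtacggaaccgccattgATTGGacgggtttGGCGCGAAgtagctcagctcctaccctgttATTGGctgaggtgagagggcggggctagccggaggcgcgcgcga

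Over windows of 300 bases (250 before the start and 50 after), 36 of the 45 members had a RefSeq promoter. A CHR match was present in 13 of 18 mitosis promoters (72.2%) and in 1 of 10 S phase promoters, that of Mcm2, compared with 20.2% of the 27025 promoters of the whole table. A CCAAT match was present in 16 of 18 mitosis promoters (88.9%) and 8 of 10 S phase promoters, compared with 41.1% of all. E2F-like matches were found in 5 of 10 S phase promoters and 0 of 18 mitosis promoters, compared with 3.1% of all. Matches of different motifs shared bases in 1 member promoter, that of Mcm7. The single CHR match of Kif23 and the proximal match of Ccnb2 lay just downstream of the annotated start, 2 and 4 bases from it.

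Total counts were 18949106 to 26237825 in control and 19883101 to 23291792 in KO libraries, and levels are given as CPM, the count of a gene relative to the TMM-scaled size of its library. Fam20c was 10.2 ± 1.29 CPM in control against 7.30 ± 0.449 CPM in KO libraries (SD, n = 5), without overlap between the groups (log2 fold change -0.49, SE 0.093, edgeR quasi-likelihood test, Benjamini-Hochberg adjusted p = 0.0137). Fam20c RNA was thus lower but not absent in KO libraries, and where the remaining reads came from was not tested. Control 4 and KO 1 stood apart from the other libraries on the first principal component, which held 23.5% of the variance. The 12 adipocyte markers summed to 40218 to 41484 CPM in control against 42204 to 44330 CPM in KO libraries, and 0 of 12 passed the test (2.17% of all genes). By sign 11 were higher in KO, where 50.3% of all genes were lower. At an unadjusted p under 0.05, 5 were higher, against 4.43% of all genes. The 8 lymphocyte markers were too low to test.

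The cultures expressed the groups at very different levels. Per kilobase of exon, the 22 mitosis genes had a median of 0.539 CPM in control libraries and none exceeded 1.29 CPM per kilobase, whereas the median of all tested genes was 4.14 CPM per kilobase. S phase genes had a median of 2.34 CPM per kilobase, from Tk1 at 0.400 to Pcna at 15.6. G1 and G1/S cyclins had a median of 6.81 CPM per kilobase, and CDK inhibitors one of 26. Among the 45 members the highest level was that of Cdkn1a, which encodes the CDK inhibitor p21, with 124 CPM per kilobase, above 97.3% of the tested genes. It was followed by Ccnd2 (cyclin D2) at 49.9 ± 2.88 and Cdkn2c (the inhibitor p18) at 42.0 ± 5.36 CPM per kilobase. Adipocyte markers had a median of 336 CPM per kilobase.

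**Figure D1:**
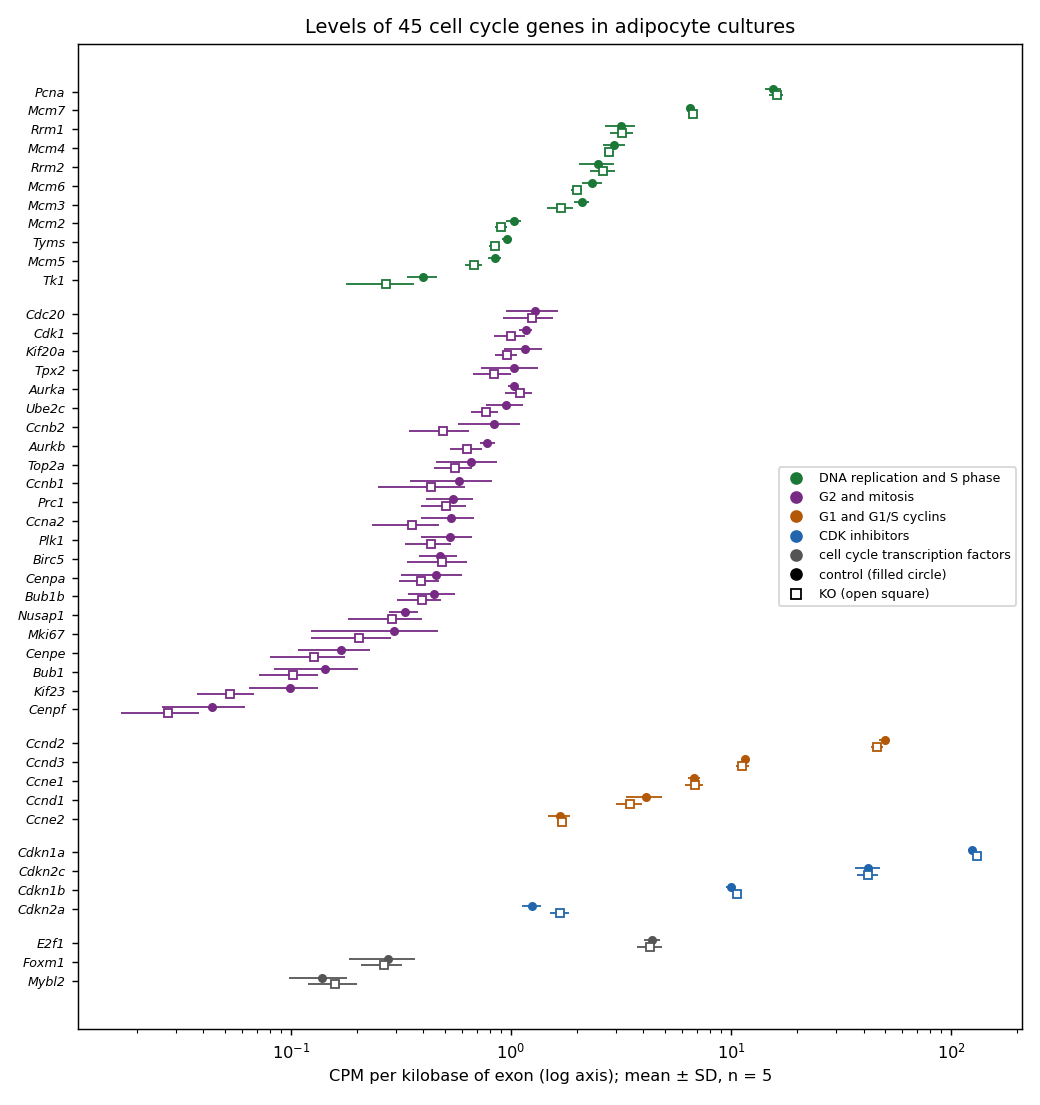
Mean CPM per kilobase of exon (log axis, ± SD, n = 5) of the 45 members in control (filled circles) and KO libraries (open squares), coloured by role. Cdkn1a, Ccnd2 and Cdkn2c lie farthest to the right (124, 49.9 and 42.0 in control libraries), and mitosis genes lie at 1.29 or less in control libraries.

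The comparison of KO with control asked whether these genes differ between cultures with and without the adipocyte deletion, where Fam20c RNA was lower but not absent. Of the 44 members tested, 0 passed the adjusted p limit of 0.05 in the edgeR quasi-likelihood test (Benjamini-Hochberg), against 2.17% of all 14270 genes, 1.86% lower and 0.308% higher. The smallest adjusted p was 0.179, for Cdkn2a. At an unadjusted p under 0.05, 10 members were lower in KO (22.7%, against 7.46% of all genes) and 1 was higher (2.27%, against 4.43%). By sign alone 32 of 44 were lower in KO (72.7%, against 50.3% of all genes), and the median log2 fold change was -0.18 over the members and -0.00085 over all genes. Members that vary together are not independent, so these shares are descriptions and not tests. The count of 10 lower members was 6 without control 1 or without control 4, and 5 without KO 3. With DESeq2 and limma voom 0 members passed either, with smallest adjusted p-values of 0.153 and 0.0970. Without control 4 and KO 1, 0 members passed, 12 were lower and 1 was higher at an unadjusted p under 0.05, and the median was -0.17. Without control 4 alone the median was -0.086.

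**Figure D2:**
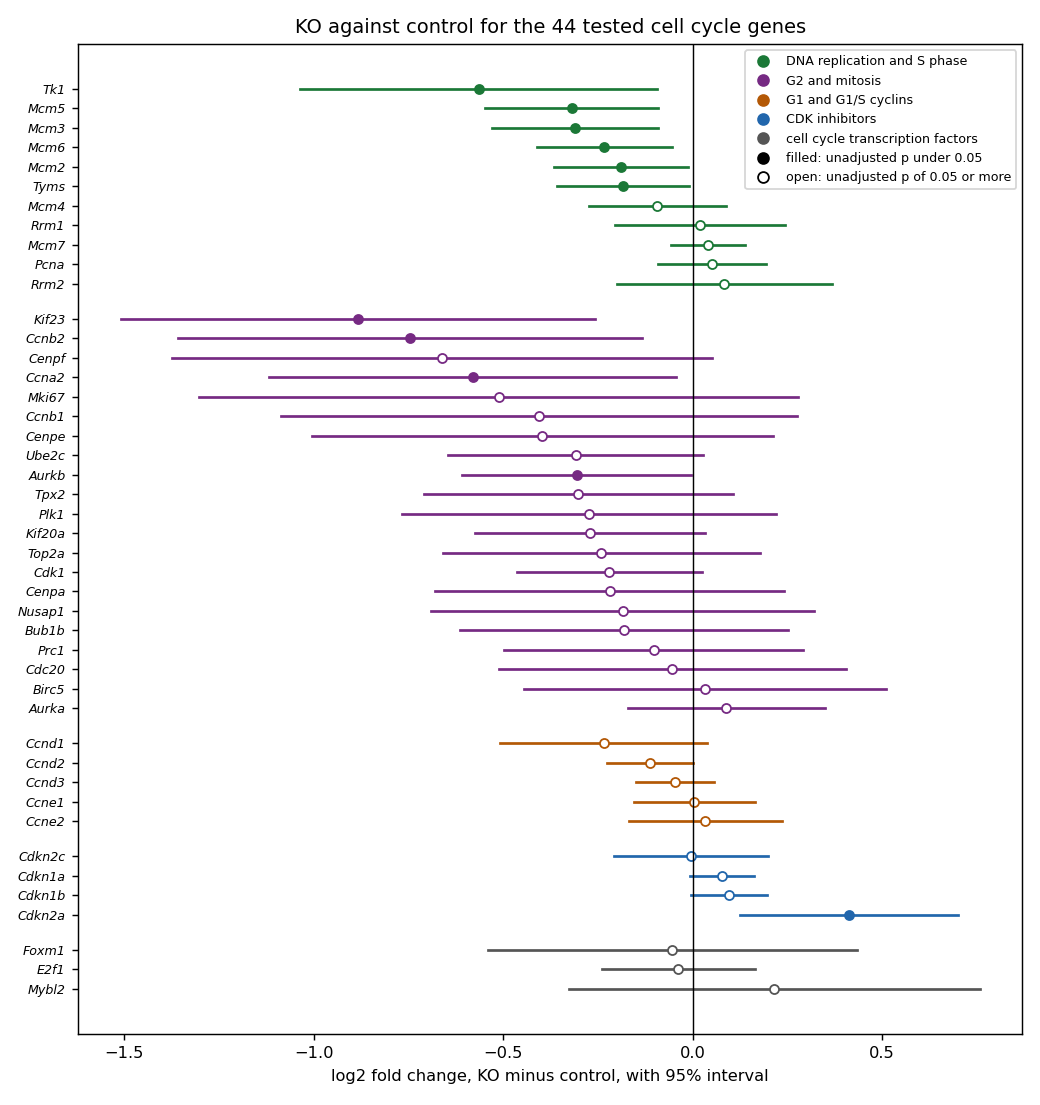
Log2 fold change of KO minus control for the 44 tested members, with 95% intervals, grouped by role. Filled points have an unadjusted p under 0.05. The mitosis genes lie mostly left of 0 with wide intervals, Ccnd2, Ccnd3 and Cdkn1a lie near 0 with narrow ones, and Cdkn2a lies to the right.

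Of the 11 S phase genes, 7 were lower in KO (63.6%, against 50.3% of all genes). The adjusted limit was passed by 0 of them (2.17% of all genes), and the median log2 fold change was -0.18. At an unadjusted p under 0.05, 6 were lower (54.5%, against 7.46% of all genes), namely 4 subunits of the MCM2–7 replicative helicase and both thymidylate enzymes. Mcm5, a helicase subunit, had 3.46, 3.71, 3.15, 3.29 and 3.25 CPM in control against 2.98, 2.37, 2.88, 2.57 and 2.75 CPM in KO libraries, listed here and for each gene in the order of replicates 1 to 5. The groups did not overlap, as for 2.66% of all genes with KO below, and the log2 fold change was -0.32 (SE 0.105, edgeR adjusted p = 0.192). The 2-sided exact permutation p of 0.00794 is the smallest that 5 libraries against 5 can give. It is fixed by the lack of overlap and adds no further support. Mcm3 had 8.44, 6.86, 7.81, 8.27 and 7.90 CPM in control against 7.04, 6.10, 7.29, 5.27 and 5.90 CPM in KO libraries. Control 2 lay below KO 1 and KO 3, and the other controls lay above all KO libraries (log2 fold change -0.31, SE 0.101, edgeR adjusted p = 0.186).

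Mcm6 had 12.1, 9.49, 12.0, 11 and 10.1 CPM in control against 8.78, 8.74, 9.86, 9.48 and 9.52 CPM in KO libraries (log2 fold change -0.23, SE 0.082, edgeR adjusted p = 0.237). Mcm2 had 6.77, 7.16, 7.99, 6.58 and 7.36 CPM in control against 6.15, 5.80, 6.28, 6.92 and 6.31 CPM in KO libraries (log2 fold change -0.19, SE 0.082, edgeR adjusted p = 0.372). In both genes the groups overlapped, Mcm6 through control 2 and Mcm2 through KO 4. The other subunits had values nearer 0. Mcm4 had a log2 fold change of -0.09 with a 95% interval of -0.27 to 0.09, and Mcm7, whose exons overlap those of Ap4m1 and Cops6 on the other strand, one of 0.04 with an interval of -0.06 to 0.14. Whether the subunits differed from each other was not tested.

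Tyms, which makes thymidylate from deoxyuridylate, had 6.03, 5.81, 6.16, 5.32 and 5.92 CPM in control against 5.21, 4.92, 4.93, 5.63 and 5.04 CPM in KO libraries (log2 fold change -0.18, SE 0.080, edgeR adjusted p = 0.381). Tk1, the thymidine salvage kinase, had 2.26, 1.87, 1.88, 2.56 and 1.82 CPM in control against 2.08, 0.922, 1.44, 0.962 and 1.63 CPM in KO libraries. It had the largest S phase change, -0.56 (SE 0.218, edgeR adjusted p = 0.294), but KO 1 lay within the control range, its counts were only 21 to 53 a library, and its exons overlap those of Afmid. Pcna, the sliding clamp of DNA polymerases, had 35.0, 37.8, 36.9, 34.8 and 42.1 CPM in control against 37.8, 39.5, 40.6, 41.3 and 34.2 CPM in KO libraries. The groups of Pcna overlapped throughout (log2 fold change 0.05, 95% interval -0.09 to 0.19). The ribonucleotide reductase subunits Rrm1 and Rrm2 had log2 fold changes of 0.02 and 0.08, with 95% intervals of -0.20 to 0.24 and -0.20 to 0.37.

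**Figure D3:**
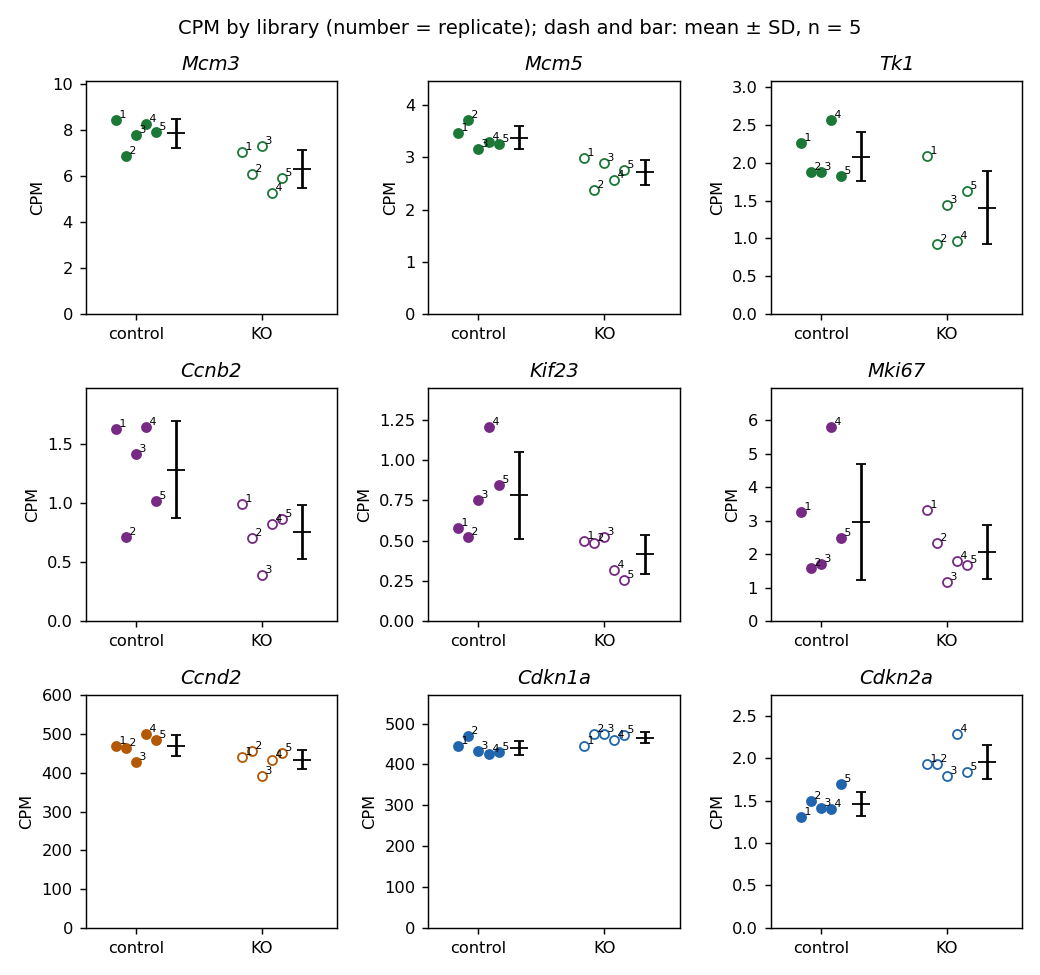
CPM of 9 members in each library (filled points for control, open points for KO, numbers for the replicate), with mean ± SD (n = 5) at the right of each group. Axes start at 0. The groups are apart for Mcm5 and Cdkn2a and nearly touch for Kif23, while control 4 is the highest point of Mki67.

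Mitosis genes were lower in KO by sign in 19 of 21 tested members (90.5%, against 50.3% of all genes), and their median log2 fold change was -0.27. These genes varied together between libraries, so the 21 are not independent observations and the share is a description only. Yet 0 passed the adjusted limit (2.17% of all genes) and 4 had an unadjusted p under 0.05, all lower (19%, against 7.46% of all genes). Bub1, a spindle checkpoint kinase, was too low to test with 7 to 18 counts a library. Kif23, the kinesin of the cytokinetic midzone, had 0.577, 0.525, 0.752, 1.21 and 0.845 CPM in control against 0.496, 0.483, 0.524, 0.321 and 0.254 CPM in KO libraries. The lowest control value was only just above the highest KO value, on 5 to 25 counts a library, and 2.66% of all genes had KO below without overlap. The log2 fold change was -0.88 (SE 0.289, edgeR adjusted p = 0.188). The 2-sided exact permutation p of 0.00794 is fixed by the lack of overlap. Ccnb2, cyclin B2, had 1.63, 0.712, 1.41, 1.64 and 1.01 CPM in control against 0.992, 0.703, 0.393, 0.825 and 0.865 CPM in KO libraries. Control 2 lay within the KO range, and counts were 9 to 34 a library (log2 fold change -0.75, SE 0.282, edgeR adjusted p = 0.279).

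Ccna2, cyclin A2, which acts in S phase and G2, had 2.73, 1.54, 2.07, 2.85 and 1.73 CPM in control against 2.08, 1.71, 1.18, 1.42 and 0.814 CPM in KO libraries (log2 fold change -0.58, SE 0.248, edgeR adjusted p = 0.365). Aurkb, the kinase of the chromosomal passenger complex, had 2.41, 2.21, 2.40, 2.47 and 2.03 CPM in control against 2.28, 1.49, 1.79, 2.06 and 1.68 CPM in KO libraries (log2 fold change -0.31, SE 0.139, edgeR adjusted p = 0.410). Both genes overlapped between the groups, and Ccna2 exons overlap those of Exosc9. Cdc20, an activator of the anaphase-promoting complex and the mitosis gene highest per kilobase, had 2.36, 1.54, 2.26, 3.29 and 2.62 CPM in control against 3.32, 2.24, 2.14, 1.79 and 2.09 CPM in KO libraries. Its highest value was in KO 1, and its log2 fold change was -0.05 with a 95% interval of -0.51 to 0.40. Cdc20 exons overlap those of Elovl1 on the other strand.

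The mitosis genes higher in KO by sign were Aurka (0.09, 95% interval -0.17 to 0.35) and Birc5 (0.03, -0.45 to 0.51), a spindle kinase and the passenger subunit survivin, and both values were below 0 without control 4 and KO 1 (-0.013 and -0.068). For the remaining mitosis genes the intervals included 0 and were wide, as for Mki67, the proliferation antigen (log2 fold change -0.51, 95% interval -1.30 to 0.28), Top2a, the decatenating topoisomerase (-0.24, -0.66 to 0.18), and Ccnb1, cyclin B1 (-0.41, -1.09 to 0.28). Cdk1, the mitotic kinase, had 4.93 ± 0.790 CPM in KO and 5.75 ± 0.403 CPM in control libraries (SD, n = 5), a log2 fold change of -0.22 with an interval of -0.46 to 0.024. Over the 21 tested mitosis genes the interval limits ran from 0.352-fold (Kif23) to 1.42-fold (Birc5).

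Control 4 and KO 1 were high for mitosis genes within their own groups. Control 4 was the highest control for 19 of 21 tested mitosis genes (30.9% of all genes), KO 1 was the highest KO library for 18 (26.5% of all genes), and both held for 17 (81%, against 14.7% of all genes). Mki67, chosen as an example after its values were seen, had 3.25, 1.57, 1.69, 5.80 and 2.49 CPM in control against 3.32, 2.33, 1.18, 1.79 and 1.68 CPM in KO libraries. The 22 mitosis genes summed to 57.6, 45.1, 53.6, 76.8 and 51.3 CPM in control against 62.0, 44.9, 41.2, 46.2 and 42.3 CPM in KO libraries, so KO 1 exceeded 4 of the 5 controls. The median log2 fold change of the mitosis genes was -0.14 without control 4, -0.36 without KO 1 and -0.26 without both. Among S phase genes, both libraries were highest for 4 of 11 (36.4%). The S phase sums were 154, 152, 151, 164 and 157 CPM in control against 162, 152, 150, 153 and 144 CPM in KO libraries. Sums weigh genes by level, so these rest mostly on Pcna, Rrm1 and Mcm7, with log2 fold changes of 0.05, 0.02 and 0.04. They say little about the S phase members at lower levels. Cdkn2c had its lowest control value in control 4, 88.1 CPM against 114 to 123 CPM in the others, and its lowest KO value in KO 1, 93.3 CPM against 112 to 123 CPM. Both libraries were the lowest of their groups for 12.4% of all genes.

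**Figure D4:**
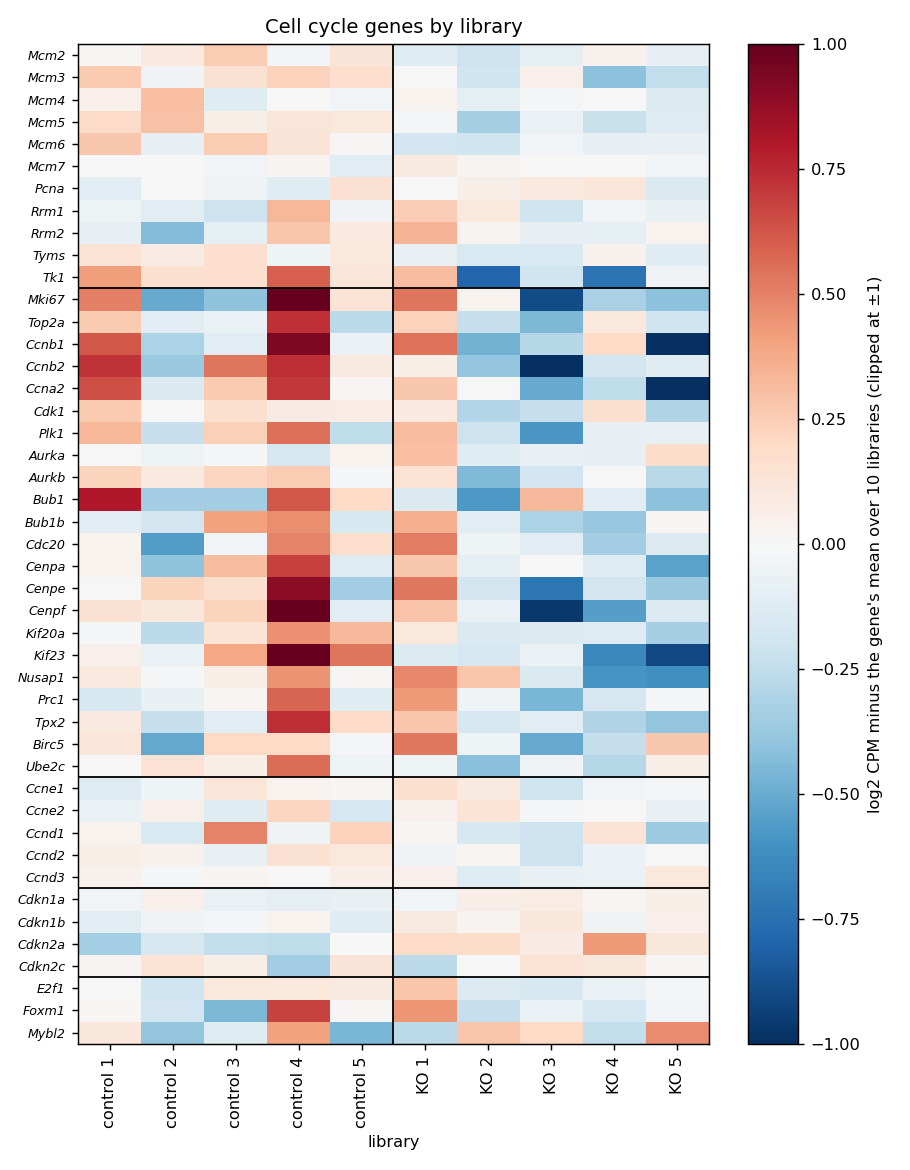
Log2 CPM of each member minus its mean over the 10 libraries (red above, blue below, clipped at ±1), with libraries in columns and roles separated by lines. Columns control 4 and KO 1 are red for most mitosis genes and blue for Cdkn2c, and KO libraries 2 to 5 are mostly blue in the mitosis block.

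G1 and G1/S cyclins were at 0 of 5 past the adjusted limit (2.17% of all genes) and 0 of 5 with an unadjusted p under 0.05 (11.9%). For so few genes 0 is near these shares. Ccnd2 had 469, 464, 429, 502 and 485 CPM in control against 440, 457, 392, 433 and 451 CPM in KO libraries, which overlapped (log2 fold change -0.11, 95% interval -0.23 to 0.00054, edgeR adjusted p = 0.426). Ccnd1, cyclin D1, which responds to growth factors, had 18, 15.8, 24.8, 17.1 and 20.6 CPM in control against 17.8, 15.7, 15.2, 19.5 and 13.6 CPM in KO libraries. Its highest value was that of control 3, and the log2 fold change was -0.23 (SE 0.126, edgeR adjusted p = 0.510). Ccnd3 and Ccne1 had log2 fold changes of -0.05 and 0.0048, with 95% intervals of -0.15 to 0.06 and -0.15 to 0.16, and the value of Ccne1 turned to -0.0013 with upper-quartile size factors. Exons of the 3 D-type cyclin genes overlap those of genes on the other strand.

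CDK inhibitors also had 0 of 4 past the adjusted limit (2.17% of all genes), with a median log2 fold change of 0.09. Cdkn2a, the locus of p16INK4a and p19ARF, which the counts do not separate, had 1.31, 1.5, 1.41, 1.40 and 1.69 CPM in control against 1.93, 1.93, 1.79, 2.29 and 1.83 CPM in KO libraries. Each KO library lay above each control library, as for 1.31% of all genes, on 25 to 50 counts a library (log2 fold change 0.41, SE 0.132, edgeR adjusted p = 0.179). The 2-sided exact permutation p of 0.00794 is fixed by the lack of overlap. Cdkn1a had 445, 469, 433, 425 and 431 CPM in control against 444, 474, 476, 460 and 472 CPM in KO libraries. Its groups overlapped, with control 2 above KO 1 and KO 4, and the 95% interval of the log2 fold change, -0.0066 to 0.16, allowed at most a small difference at 8486 to 12515 counts a library. Cdkn1a exons overlap those of AC167363.2 on the other strand. Cdkn1b, which encodes p27, had 45.4 ± 2.12 CPM in control against 48.5 ± 2.01 CPM in KO libraries (SD, n = 5, interval -0.0031 to 0.20), and Cdkn2c had a log2 fold change of -0.0044 (interval -0.21 to 0.20).

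The transcription factors had 0 of 3 at an unadjusted p under 0.05 (11.9% of all genes). E2f1, an activator of replication genes, had 13.6, 11.8, 14.7, 14.7 and 14.5 CPM in control against 16.5, 12.3, 12.1, 13.0 and 13.5 CPM in KO libraries (log2 fold change -0.04, 95% interval -0.24 to 0.16). Mybl2, which encodes B-MYB, had 0.734, 0.487, 0.611, 0.919 and 0.465 CPM in control against 0.546, 0.834, 0.786, 0.550 and 0.967 CPM in KO libraries (log2 fold change 0.22, 95% interval -0.33 to 0.76). In both the groups overlapped, and Foxm1 (-0.05, interval -0.54 to 0.43) was likewise undecided at its 23 to 51 counts a library.

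Wider lists of the same pathways gave 1 gene past the adjusted limit among 122 tested genes outside the members, where 2.17% of all genes passed it. Rfc4, a subunit of the clamp loader, was 6.07 ± 0.837 CPM in control against 9.53 ± 0.542 CPM in KO libraries (SD, n = 5, log2 fold change 0.65, SE 0.097, edgeR adjusted p = 0.00295). Its values were 4.93, 6.86, 6.30, 6.77 and 5.50 CPM in control against 9.72, 9.57, 9.08, 10.3 and 8.96 CPM in KO libraries, without overlap. Rfc4 lies on chromosome 16, from 23113943 to 23127737 on the minus strand, 18.8 kb from Adipoq, whose promoter drives the Cre, and its exons overlap those of Eif4a2 on the other strand. Eif4a2 was higher in KO too (log2 fold change 0.67, SE 0.094, edgeR adjusted p = 0.00166), while Adipoq had a log2 fold change of 0.05 (edgeR adjusted p = 0.743). Of the other tested genes within 100 kb of Adipoq, Kng1 was at 0.99 (SE 0.259, edgeR adjusted p = 0.0809) with overlapping groups. The log2 fold changes of 6330408M09Rik and St6gal1 were 0.33 and -0.04. The part of the transgene or of shared reads in the value of Rfc4 was not tested.

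Among the 38 tested replication genes outside the members, Rfc4 included, 5 were lower at an unadjusted p under 0.05, against 7.46% of all genes. Their median was -0.05, and the lowest was Cdc6, a replication licensing factor (log2 fold change -0.70, SE 0.241, edgeR adjusted p = 0.223). Among 47 other tested mitosis genes, 9 were lower at an unadjusted p under 0.05 and 0 were higher, against 7.46% and 4.43% of all genes. Such genes may vary together and are not independent observations either. The median of the 47 was -0.11, and the lowest was the chromokinesin gene Kif4 (log2 fold change -0.72, SE 0.309, edgeR adjusted p = 0.366). Other G1 and E2F pathway genes (19 tested) had a median of -0.02 with 0 at an unadjusted p under 0.05 (11.9% of all genes). Of 3 other CDK inhibitor genes, 1 was lower and 0 were higher at an unadjusted p under 0.05, against 7.46% and 4.43% of all genes. The lowest was Cdkn1c, which encodes p57 (log2 fold change -0.29, SE 0.086, edgeR unadjusted p = 0.0054, adjusted p = 0.136). Of 15 tested p53 target genes 0 passed the adjusted limit (2.17% of all genes), 3 were higher at an unadjusted p under 0.05 (4.43%), and the median was 0.02. Trp53inp1 was the highest (log2 fold change 0.24, SE 0.104, edgeR adjusted p = 0.366) and Plk2 the lowest (-0.18).

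Markers of other cells differed between the same groups. Of 14 blood vessel endothelial markers, 12 were lower in KO past the adjusted limit, against 1.86% of all genes. The 14 summed to 168 to 204 CPM in control against 69.1 to 103 CPM in KO libraries. Of 10 progenitor and fibroblast markers, 5 were lower past the limit, with sums of 5032 to 6496 CPM in control against 4178 to 4970 CPM in KO libraries. None of 10 macrophage and none of 8 tested pericyte markers passed (2.17% of all genes in either direction). At an unadjusted p under 0.05, 0 and 4 of them, respectively, were lower (7.46% of all genes). In bulk RNA, fewer cells of a type and less RNA per cell cannot be told apart, and the part of these cells in the lower values of replication and mitosis members was not tested.

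**Figure D5:**
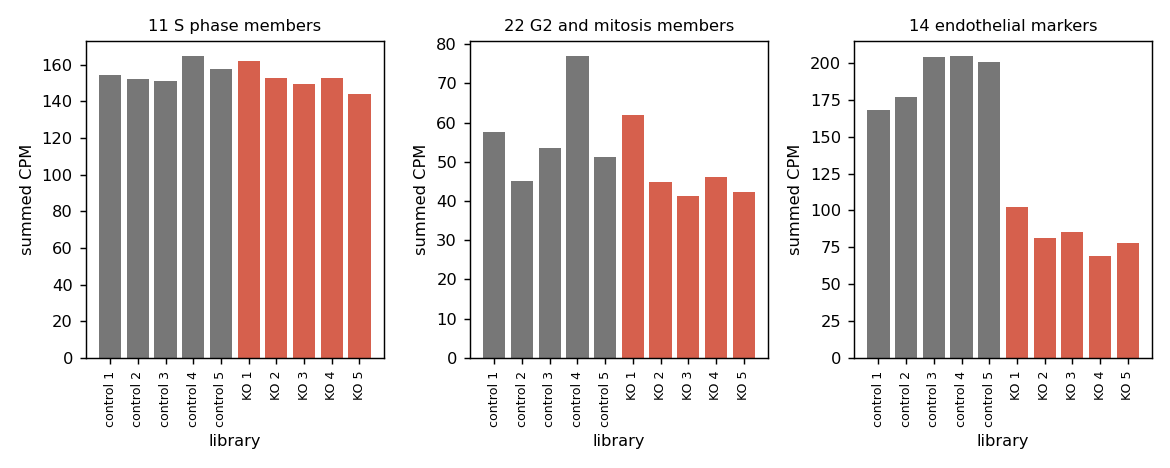
Summed CPM per library of the 11 S phase members, the 22 mitosis members and the 14 endothelial markers (grey for control, red for KO, axes from 0). The S phase sums, which rest mostly on Pcna, Rrm1 and Mcm7, overlap between the groups. The mitosis sums are highest in control 4 and KO 1 (76.8 and 62.0), and the endothelial sums are at least 168 in control and at most 103 in KO libraries.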

How the data were processed

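The authors prepared libraries from total RNA with SMARTer and Nextera XT kits, sequenced paired ends, mapped reads to GRCm38.p6 with STAR and counted fragments per gene with featureCounts and an Ensembl annotation. The strand setting is not given in the sources used here. The deposited counts were not normalized, and 0 columns belonged to other samples. KO and control were compared with the quasi-likelihood test of edgeR 4.0.16 (R 4.3.3) after TMM scaling, on the 14270 genes that filterByExpr kept at a minimum count of 10, and p-values were adjusted over them by Benjamini-Hochberg with a limit of 0.05. Adjusted p-values are from this test unless another tool is named. Log2 CPM used a prior count of 2, and 95% intervals came from the same fit. The 2-sided exact permutation tests enumerated the 252 ways to split 10 libraries evenly. Their p-values are printed only for members whose groups did not overlap, where they are the smallest possible. DESeq2 1.42.0 and limma 3.58.1 (voom) were alternatives, beside other size factors, other filters, a block for the replicate number, each library left out in turn, and control 4 and KO 1 left out together. Gene positions and exon lengths are those of GENCODE M21, promoters those of RefSeq. The procedure was tested on counts simulated with the same spread between libraries for every gene, which does not cover genes that vary more.

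The members and lists, the omission of control 4 and KO 1, and the rules for naming genes were chosen with earlier results of these data known. Values of every library are given for members with an unadjusted p under 0.05 and, in each role, for the members with the highest level per kilobase and the largest change. From the wider lists only genes past the adjusted limit and the genes at the extremes are named. At 18949106 to 26237825 counts a library, genes below 1 CPM rest on fewer than 30 counts, and counting error is largest there.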

Additional observations from a re-analysis of the deposited data

Results flagged for a closer look

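In each group of 5 libraries, the gap between the most extreme library and its nearest neighbour was compared with the whole range of the group, over 102 groups made of the members and their summed levels. In 10 groups the extreme library lay farther out than Dixon's 95% limit of 0.71, where chance gives about 1 in 20, or 5.1 groups; genes that vary together are not independent.

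Control 4 was the high library for the ribonucleotide reductase gene Rrm1 (43.95 CPM, others 30.19 to 34.07), the kinetochore gene Cenpf (1.16, others 0.465 to 0.6114), the spindle genes Nusap1 (1.692, others 1.2 to 1.311) and Prc1 (6.383, others 3.776 to 4.28) and the ubiquitin conjugating enzyme gene Ube2c (3.288, others 2.114 to 2.437). It was the low library for the CDK inhibitor Cdkn2c (88.1 CPM, others 114.1 to 123). KO 1 was the high library for Rrm2 (8.879 CPM, others 6.551 to 7.176), Foxm1 (2.083, others 1.273 to 1.476) and the summed mitosis genes (61.96 CPM, others 41.16 to 46.18). KO 4 was the high library for Cdkn2a (2.291 CPM, others 1.789 to 1.935).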

How the results depend on the processing

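Under each of 18 alternatives 0 members passed the adjusted limit. Of 44 members, 33 kept their direction in every alternative that tested them (the stricter filter tested 26), among them the 11 with an unadjusted p under 0.05. Turns of direction with all libraries were at small log2 fold changes: Ccne1 with upper-quartile size factors (-0.0013), and Cdc20 (0.018) and Foxm1 (0.014) with limma voom. Without control 4 and KO 1, Aurka (-0.013), Birc5 (-0.068), Ccne1 (-0.028) and Foxm1 (0.023) turned. Turned values were larger for single libraries left out, up to 0.16 for Foxm1 (without control 4) and down to -0.12 for Birc5 (without KO 1). With 1 library left out, log2 fold changes ran from -0.034 to 0.055 for Ccne1, -0.041 to 0.12 for Rrm1, -0.0079 to 0.17 for Rrm2, -0.12 to 0.15 for Birc5, -0.079 to 0.058 for Cdkn2c, -0.21 to 0.086 for Cdc20, -0.24 to 0.058 for Prc1, -0.19 to 0.16 for Foxm1, -0.0062 to 0.099 for Ccne2 and -0.12 to 0.0015 for E2f1. The cause was not tested.

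At an unadjusted p under 0.05, the stricter filter, which tested 26 members, left 6 lower and 0 higher, and RLE size factors, DESeq2 and limma voom each gave 2 higher. Leaving out 1 library gave 5 to 13 lower members (6 without control 1 or control 4, 5 without KO 3) and 1 to 2 higher. The median over all members, -0.18, was -0.086 without control 4. The count of all genes past the limit, 309, was 484 with DESeq2, 498 without control 4 and KO 1, and 187 to 442 with 1 library left out (205 without control 5, 187 without KO 2, 194 without KO 5).

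The labels give both groups the same replicate numbers without saying whether these pair the libraries, and no pairing was assumed. Deviations of same-numbered libraries correlated at -0.17, 0.089, 0.26, -0.25 and 0.034, and 1 of 5 KO libraries correlated best with its own number. With the number as a replicate block, 214 genes and 0 members passed, 9 members were lower and 1 was higher at an unadjusted p under 0.05, and the median of the members was -0.19.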
